A study of Arabidopsis thaliana with 8 samples.

Results

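The nuclear genes of the photosynthetic light reactions and of the Rubisco small subunit were examined in floral stems of Arabidopsis thaliana accession Col-0, as 45 listed loci out of 32833 in the deposited tables. They comprised 17 antenna genes of the LHCA and LHCB families, 21 genes for core and peripheral subunits of photosystem I (PSA, 11 genes) and photosystem II (PSB, 10 genes), the 4 RBCS genes, and 3 genes for electron carriers (PETC, PETE1 and PETE2). The 8 libraries formed 4 groups of 2: msh1 TRAP, WT TRAP, msh1 Total and WT Total. All plants were of Col-0 background and grew under long days, and WT and msh1 differed by mutation of MSH1, a nuclear gene for an organelle-targeted homologue of the MutS mismatch repair proteins. TRAP (translating ribosome affinity purification) recovers ribosomes through a tagged ribosomal protein, here FLAG-tagged RPL18 under the MSH1 promoter, so a TRAP library samples RNA on ribosomes of the cells in which that promoter was active. Total libraries hold RNA of the stem as a whole. Not given in the sources used here are the msh1 allele, the age of the plants, the hour of harvest and whether the plants of the Total samples carried the construct.

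In green tissue, pigment-binding antenna proteins of the LHC superfamily collect light and pass the energy to the photosystem reaction centres. LHCB proteins serve mainly photosystem II, where LHCB1, LHCB2 and LHCB3 form the trimeric antenna and LHCB4, LHCB5 and LHCB6 the monomeric linkers, and LHCA proteins serve photosystem I. The reaction centre proteins themselves are encoded in the plastid, so the nuclear PSA and PSB genes supply the surrounding subunits, such as the docking sites for electron carriers and the shield of the oxygen-evolving complex. Rubisco, the carbon-fixing enzyme, combines a plastid-encoded large subunit with the nuclear RBCS small subunit.

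The libraries held 7568728 to 13611280 gene counts, all 45 loci passed the filter on low counts, and the smallest count of any of them was 694, for LHCB2.3 in msh1 TRAP 1. Together the 45 loci took between 9.70 and 11.7% of the gene counts of a library. MSH1 itself stood at 36.3 and 22.5 CPM (a count scaled by library size) in the libraries labelled msh1 TRAP, against 12.3 and 14.0 CPM for WT TRAP. In Total RNA it stood at 27.9 and 30.8 CPM in libraries labelled msh1, against 9.27 and 9.61 CPM in those of WT. A transcript that is higher in the libraries labelled msh1 does not check a genotype of unknown allele, so each direction below is one between libraries as labelled. The secondary wall genes CESA4, CESA7 and CESA8, which mark xylem and fibres of stems, held at least 108 CPM in every library. Fold changes are edgeR quasi-likelihood estimates on the log2 scale with their standard error (SE), adjusted over 21202 tested genes, and a gene is said to have risen or fallen where the adjusted p was under 0.05. Each p-value measures only the spread between 2 libraries per group, estimated over the 4 groups together in 1 fit. A call in Total RNA thus also depends on the TRAP libraries, and the reverse. In bulk RNA of this kind, fewer cells of a type and less RNA per cell cannot be told apart.

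The antenna and core genes moved in opposite directions in msh1 TRAP. Antenna genes took 4.45 and 4.31% of the gene counts in msh1 TRAP, against 6.79 and 7.35% in WT TRAP, while core genes took 3.57 and 4.60% in msh1 TRAP, against 2.39 and 2.61% in WT TRAP. In Total RNA the antenna share was 5.09 and 4.98% in msh1, against 6.22 and 5.66% in WT, and the core share 3.03 and 3.0% in msh1, against 2.90 and 2.74% in WT. By these shares both classes were separated by genotype without overlap in both fractions, and the core separation was narrow in Total RNA. In mean log2 CPM the core genes overlapped in Total RNA, at 10.169 and 10.155 in msh1, against 10.167 and 10.023 in WT. RBCS genes took 1.52 and 2.18% in msh1 TRAP, against 0.956 and 1.05% in WT TRAP, and 1.4 and 1.38% in msh1 Total, against 1.13 and 1.04% in WT Total. The mean log2 CPM of the antenna genes minus that of the core genes was 0.16 and -0.20 in msh1 TRAP, against 1.48 and 1.53 in WT TRAP. In Total RNA it was 0.55 and 0.56 in msh1, against 1.19 and 1.09 in WT, so the order of the groups was the same in both fractions with a wider gap in TRAP.

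**Figure D1:**
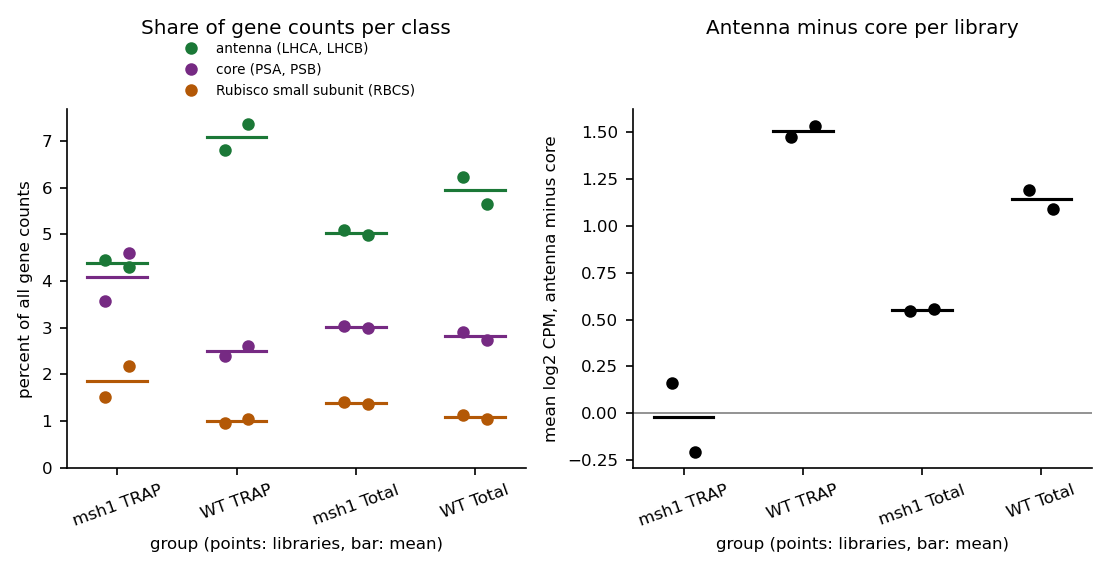
Left, percent of all gene counts taken by the antenna, core and RBCS genes in each library (points) with the mean of each group of 2 (bars). Right, mean log2 CPM of the 17 antenna genes minus that of the 21 core genes per library. The antenna points of msh1 TRAP (4.45 and 4.31%) lie below those of WT TRAP (6.79 and 7.35%), and on the right the msh1 TRAP points lie near 0.

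**Figure D2:**
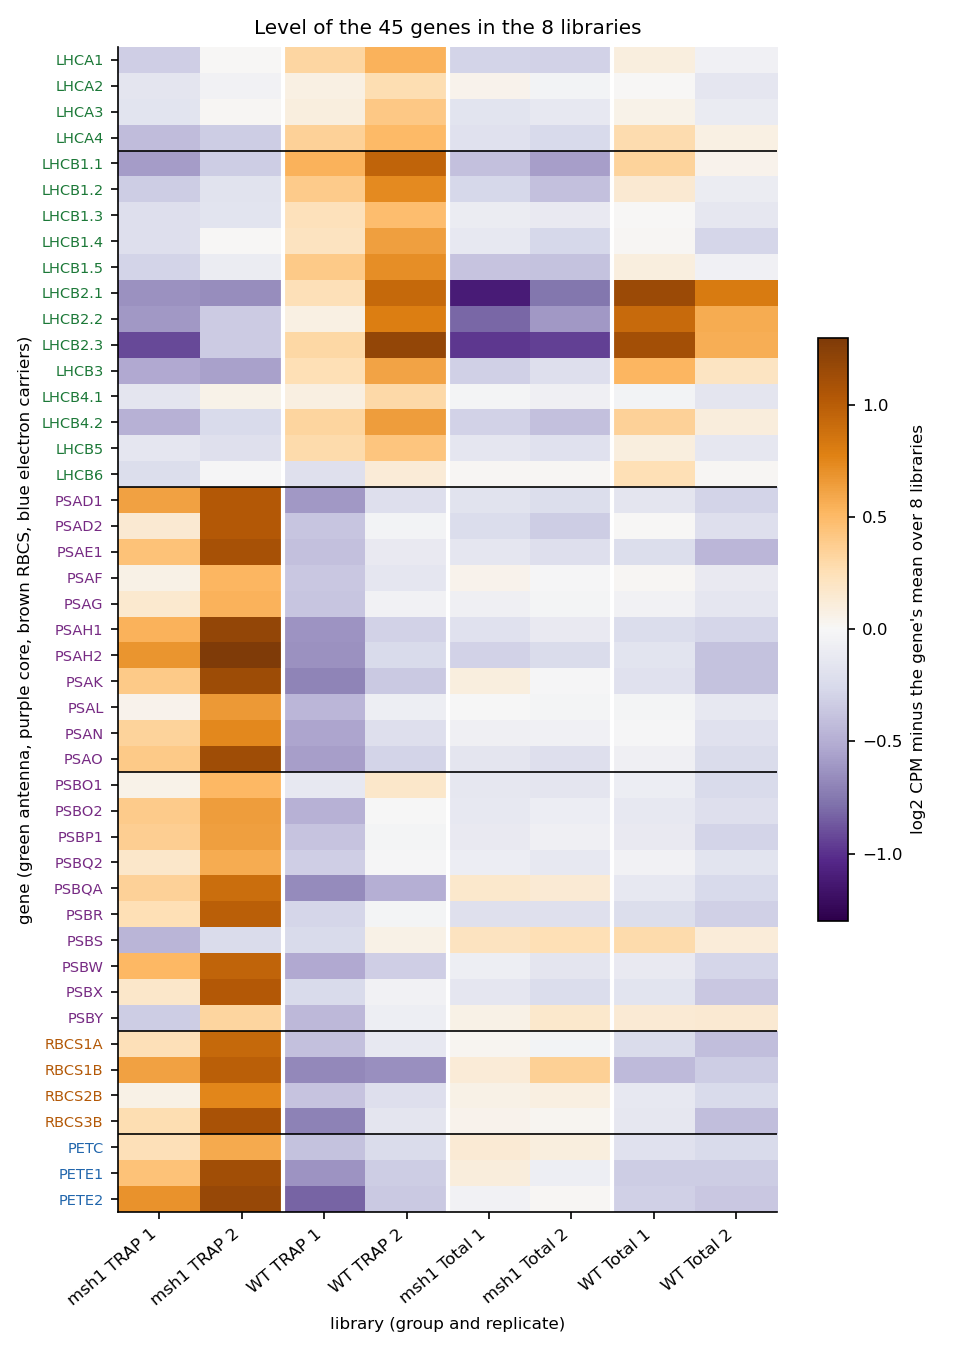
Heat map of the 45 genes (rows, antenna at the top, then photosystem I, photosystem II, RBCS and electron carriers) in the 8 libraries (columns), as log2 CPM minus the gene's mean over the libraries. Orange is above and purple below that mean: most core, RBCS and electron carrier genes are highest in msh1 TRAP, with the second library above the first, and the LHCB2 genes are lowest in the msh1 libraries.

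Promoters, taken as the 250 bases before the annotated transcript start in RefSeq TAIR10.1, differed between antenna and core genes in how many held the string CCAATC. This string, searched like the others on either strand, is bound by the GOLDEN2-LIKE (GLK) transcription factors, which drive antenna genes, and it contains the general CCAAT box. It occurred in 10 of 17 antenna promoters (58.8%), in 1 of 21 core promoters (4.76%), in 2 of 3 electron carrier promoters (66.7%) and in none of the 4 RBCS promoters, against 10.2% of 27443 protein-coding promoters. GATAAG, the I-box of light-regulated genes, occurred in 4 antenna and 5 core promoters, against 12.3% of all. CACGTG, the G-box, occurred in 4 and 3, against 6.49%, and AAAATCT, the binding site of the clock factor CCA1, in 6 and 6, against 16.5%. TATAAA occurred in 5 and 11, against 47.3%, and AAAATATCT, the evening element, in none of the 45, against 2.36%. None of these strings contains another. The promoters shown are those of antenna genes with a large difference between msh1 and WT (LHCB2.1 and LHCB1.1) and with the smallest one in TRAP (LHCB6), and of the PSAH paralogs, which rose most among core genes, with motif matches on either strand in capitals.
LHCB2.1: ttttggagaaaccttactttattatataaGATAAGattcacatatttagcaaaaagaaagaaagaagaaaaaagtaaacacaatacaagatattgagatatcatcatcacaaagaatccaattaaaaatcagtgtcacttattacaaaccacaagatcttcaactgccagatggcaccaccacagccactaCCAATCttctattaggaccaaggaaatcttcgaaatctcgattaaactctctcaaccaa
LHCB1.1: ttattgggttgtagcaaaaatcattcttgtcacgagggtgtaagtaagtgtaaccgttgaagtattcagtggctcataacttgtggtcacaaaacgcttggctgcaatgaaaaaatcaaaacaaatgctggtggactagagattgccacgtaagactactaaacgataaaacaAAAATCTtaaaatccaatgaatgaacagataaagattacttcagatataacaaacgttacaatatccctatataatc
LHCB6: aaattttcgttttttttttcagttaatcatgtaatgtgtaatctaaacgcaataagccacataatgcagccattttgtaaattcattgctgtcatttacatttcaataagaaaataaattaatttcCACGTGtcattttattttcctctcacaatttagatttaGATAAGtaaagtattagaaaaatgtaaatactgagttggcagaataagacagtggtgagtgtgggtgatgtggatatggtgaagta
PSAH2: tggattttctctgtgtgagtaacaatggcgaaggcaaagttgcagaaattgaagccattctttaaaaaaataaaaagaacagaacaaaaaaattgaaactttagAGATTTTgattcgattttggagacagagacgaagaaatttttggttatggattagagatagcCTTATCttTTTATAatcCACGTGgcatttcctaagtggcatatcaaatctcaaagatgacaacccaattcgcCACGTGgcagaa
PSAH1: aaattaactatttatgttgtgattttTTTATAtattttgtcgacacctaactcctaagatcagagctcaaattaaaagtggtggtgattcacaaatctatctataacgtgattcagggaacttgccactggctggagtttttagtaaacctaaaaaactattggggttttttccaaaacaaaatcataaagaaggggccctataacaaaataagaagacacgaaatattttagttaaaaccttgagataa
They lie at chr2:1824481-1824730, minus strand (LHCB2.1), chr1:10475970-10476219, minus strand (LHCB1.1), chr1:5447881-5448130, minus strand (LHCB6), chr1:19454548-19454797, plus strand (PSAH2), and chr3:5469595-5469844, minus strand (PSAH1). LHCB2.1 holds CCAATC 59 bases before the start and GATAAG at 221 bases, LHCB1.1 holds AAAATCT at 77 bases, and LHCB6 holds CACGTG at 124 bases and GATAAG at 86 bases. PSAH2 holds CACGTG at 67 and 12 bases and, on the other strand, TATAAA at 76 bases, GATAAG at 84 bases and AAAATCT at 146 bases. PSAH1 holds a TATA string at 224 bases and none of the other motifs. A match is a description of these letters, not a binding site.

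The most marked difference in Total RNA was that of the LHCB2 genes, which encode a subunit of the mobile trimeric antenna whose phosphorylation by the kinase STN7 allows the antenna to move between photosystems. LHCB2.1 (AT2G05100) stood at 382 and 488 CPM in msh1 Total, against 1837 and 1451 CPM in WT Total. LHCB2.2 (AT2G05070) stood at 379 and 439 CPM in msh1 Total, against 1261 and 992 CPM in WT Total. LHCB2.3 (AT3G27690) stood at 84.5 and 86.3 CPM in msh1 Total, against 362 and 247 CPM in WT Total. The groups did not overlap for any of these genes, and the lower WT library was more than 2 times the higher msh1 library in each. The log2 fold changes were -1.92 ± 0.23 for LHCB2.1, -1.46 ± 0.23 for LHCB2.2 and -1.83 ± 0.28 for LHCB2.3 (SE, edgeR adjusted p = 0.000582, 0.00322 and 0.00275), a 3.78-fold, 2.76-fold and 3.56-fold lower level. They were the only 3 of the 45 genes that passed in this comparison, where 3.89% of all tested genes passed and 3.07% fell. LHCB2.1 and LHCB2.3 passed under each of the 15 other settings, and LHCB2.2 under all but that without msh1 Total 1 (adjusted p = 0.079).

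The other 14 antenna genes gave log2 values between -0.68 and 0.08 in Total RNA, and none of them passed in edgeR, while 4 had an unadjusted p under 0.05. Of all 21202 tested genes 3530 had such a p. LHCB1.1, at 1816 and 1612 CPM in msh1 Total, against 3023 and 2460 CPM in WT Total, did not pass (-0.68 ± 0.20, edgeR adjusted p = 0.088). LHCB3, the third partner of the trimers, stood at 1726 and 1857 CPM in msh1 Total, against 3093 and 2484 CPM in WT Total (-0.64 ± 0.19, edgeR adjusted p = 0.0843). LHCB4.2, a linker gene, stood at 798 and 742 CPM in msh1 Total, against 1250 and 1055 CPM in WT Total (-0.58 ± 0.18, edgeR adjusted p = 0.0995). These msh1 and WT values did not overlap either, and DESeq2 called LHCB1.1, LHCB3 and LHCB4.2 lower, with adjusted p of 0.014, 0.00986 and 0.0306. It called 635 of its 22636 tested genes lower. In all, both msh1 libraries lay below both WT libraries for 12 of the 17 antenna genes, against 29.4% of all tested genes. The median over the antenna genes was -0.36, against -0.0024 over all tested genes.

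The core genes showed no such difference in Total RNA. Their log2 values lay between -0.18 and 0.35 with a median of 0.06, and none of the 21 passed in edgeR, at an unadjusted p under 0.05 or in DESeq2. An edgeR fit of the Total libraries alone called 2 core genes higher and 10 antenna genes lower. The share of all tested genes called by that fit is not given here, so these counts have no baseline. PSAH2, the docking subunit of photosystem I for the mobile antenna, stood at 511 and 531 CPM in msh1 Total, against 559 and 478 CPM in WT Total, with the groups overlapping. PSBO1, the main shield protein of the oxygen-evolving complex, stood at 3453 and 3397 CPM in msh1 Total, against 3580 and 3201 CPM in WT Total, also overlapping. The 4 RBCS genes had log2 values between 0.26 and 0.63 and none passed in edgeR. RBCS1B had the largest, at 672 and 793 CPM in msh1 Total, against 456 and 490 CPM in WT Total (0.63 ± 0.17, edgeR adjusted p = 0.0654), and it was the 1 RBCS gene with an unadjusted p under 0.05 and the 1 that DESeq2 called higher (adjusted p = 0.0129). The 3 electron carrier genes had log2 values between 0.32 and 0.34, and none passed in edgeR, at an unadjusted p under 0.05 or in DESeq2.

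Markers of seed tissue moved with the LHCB2 genes. Of all tested genes 3.07% fell in Total and 20.8% in TRAP, and all 11 listed seed storage and oil body genes fell in both fractions. Their summed level was 115 to 282 CPM in msh1 Total, against 2036 to 2436 CPM in WT Total, and 44.0 to 59.5 CPM in msh1 TRAP, against 874 to 1888 CPM in WT TRAP. No seed marker was at 0 in any library, and their part in the antenna difference was not tested. The LHCB2 genes summed to 845 and 1013 CPM in msh1 Total, against 3460 and 2691 CPM in WT Total, and to 1056 and 1183 CPM in msh1 TRAP, against 1883 and 3113 CPM in WT TRAP. Within the groups the orders of the sums did not always match: the seed sum was 59.5 CPM in msh1 TRAP 1 and 44.0 CPM in msh1 TRAP 2, the reverse of the LHCB2 sums there. Floral organ markers summed to 52.2 to 63.3 CPM in msh1 Total, against 90.6 to 90.7 CPM in WT Total, and 2 of 4, AG (-1.03 ± 0.25) and SEP3 (-0.79 ± 0.19), fell in edgeR. Xylem and fibre markers summed to 633 to 792 CPM in msh1 Total, against 1042 to 1075 CPM in WT Total, where edgeR called none of 6, 4 had an unadjusted p under 0.05 and DESeq2 called 3 lower. The part of these markers was not tested either.

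**Figure D3:**
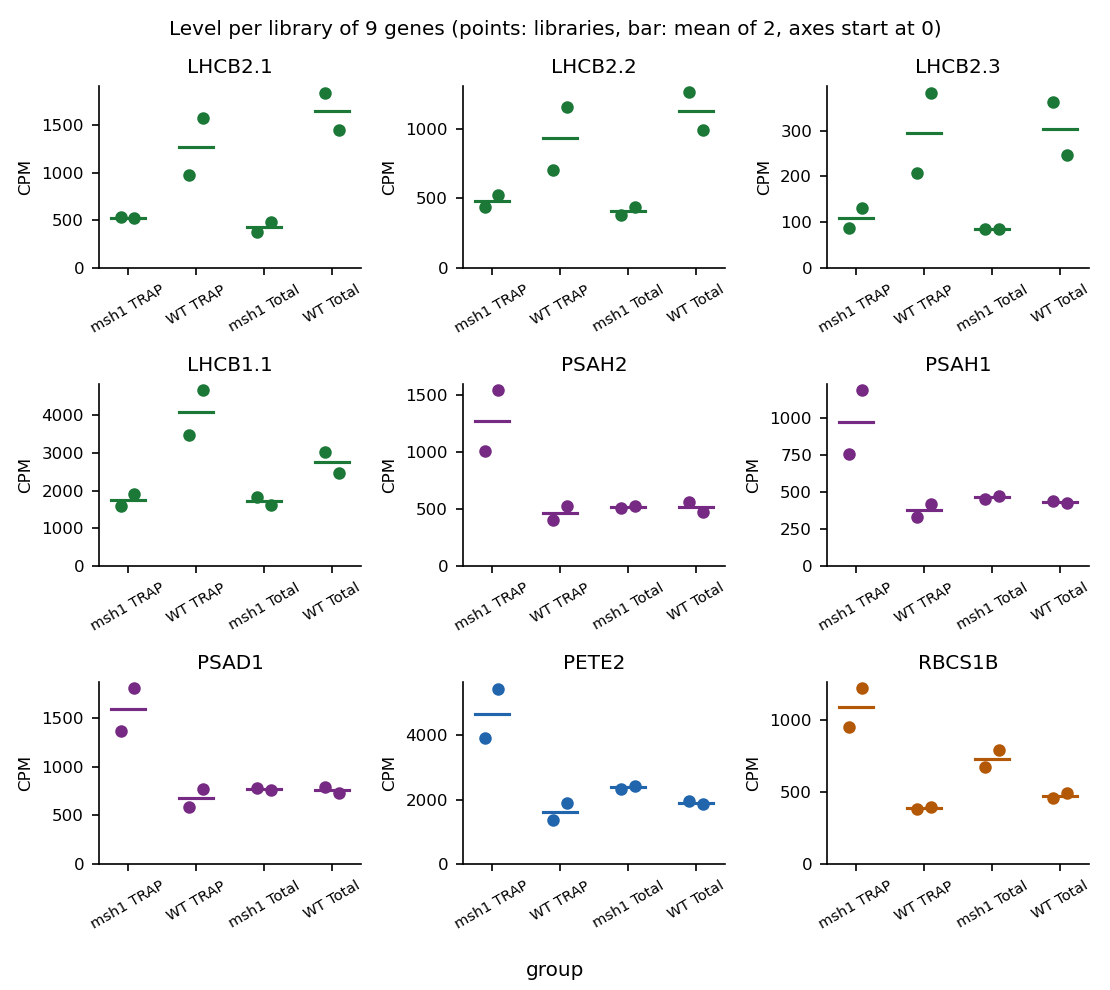
CPM per library (points) and mean of each group of 2 (bars) for 4 antenna, 3 photosystem I, 1 electron carrier and 1 RBCS gene, on linear axes that start at 0. The LHCB2 genes separate by genotype in both fractions, and PSAH2, PSAH1, PSAD1 and PETE2 stand apart in msh1 TRAP alone among the 4 groups.

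In TRAP RNA 13 of the 17 antenna genes fell in msh1, all 17 had negative log2 values, and their median was -0.76, against -0.02 over all tested genes. The comparison was a broad one, in which 41.6% of all tested genes passed, 20.8% rising and 20.8% falling, and the antenna count stands against that share. The antenna count was 7 without WT TRAP 2, and the core count, 18 as reported, was 10 without WT TRAP 1 and 11 without msh1 TRAP 2. Both msh1 libraries lay below both WT libraries for 16 antenna genes and above them for 18 core genes, against 34.8% and 32.6% of all tested genes. LHCB2.1 stood at 531 and 525 CPM in msh1 TRAP, against 976 and 1572 CPM in WT TRAP (-1.27 ± 0.23, edgeR adjusted p = 0.000994). LHCB2.3 stood at 88.4 and 132 CPM in msh1 TRAP, against 206.6 and 383 CPM in WT TRAP (-1.42 ± 0.28, edgeR adjusted p = 0.00179). LHCB2.2 stood at 437 and 526 CPM in msh1 TRAP, against 701 and 1158 CPM in WT TRAP (-0.95 ± 0.23, edgeR adjusted p = 0.0059). The msh1 libraries were lower without overlap in each case, and LHCB2.2 no longer passed without WT TRAP 2, the higher WT library (adjusted p = 0.103).

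The LHCB1 genes encode the most abundant trimer subunit and lie in clusters, LHCB1.1, LHCB1.2 and LHCB1.3 at 10472280 to 10479114 of chromosome 1 and LHCB1.4 and LHCB1.5 at 14522524 to 14525918 of chromosome 2 (TAIR10.1). All 5 fell in msh1 TRAP. None passed in Total RNA in edgeR, where DESeq2 called LHCB1.1 lower. LHCB1.1 stood at 1591 and 1901 CPM in msh1 TRAP, against 3478 and 4665 CPM in WT TRAP (-1.22 ± 0.20, edgeR adjusted p = 0.000585). LHCB1.3, which per kilobase of exon was the highest of the 45 genes in every group, stood at 13399 and 13798 CPM in msh1 TRAP, against 18326 and 21708 CPM in WT TRAP (-0.56 ± 0.19, edgeR adjusted p = 0.0328). Both genes were lower in each msh1 library than in either WT library. The values of LHCB1.2, LHCB1.4 and LHCB1.5 were -0.82, -0.54 and -0.76. LHCB1.1 made up 6.35 and 7.01% of LHCB1 counts in msh1 TRAP, against 9.19 and 10.01% in WT TRAP, and LHCB1.3 made up 53.5 and 50.9% in msh1 TRAP, against 48.4 and 46.6% in WT TRAP. LHCB1.3 and LHCB1.4 passed less securely than LHCB1.1 and LHCB1.2: they were lost under 7 and 8 of the 15 other settings, LHCB1.1 and LHCB1.2 under none.

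Among the remaining antenna genes, LHCB3 stood at 1490 and 1451 CPM in msh1 TRAP, against 2574 and 3287 CPM in WT TRAP (-0.99 ± 0.19, edgeR adjusted p = 0.0013). The linker gene LHCB4.2 stood at 704 and 824 CPM in msh1 TRAP, against 1233 and 1540 CPM in WT TRAP (-0.86 ± 0.18, edgeR adjusted p = 0.00243). Its paralog LHCB4.1 stood at 2234 and 2591 CPM in msh1 TRAP, against 2650 and 3073 CPM in WT TRAP (-0.25 ± 0.17, edgeR adjusted p = 0.274). The share of LHCB4.2 among LHCB4 counts was 24.0 and 24.1% in msh1 TRAP, against 31.8 and 33.4% in WT TRAP, and 24.6 and 23.8% in msh1 Total, against 33.9 and 32.1% in WT Total, and the genotypes did not overlap in either fraction. Of the other linkers, LHCB5 fell (-0.53 ± 0.17, edgeR adjusted p = 0.0256) but was lost under 6 of the 15 other settings, and LHCB6, at 1752 and 2008 CPM in msh1 TRAP and 1779 and 2229 CPM in WT TRAP, did not pass (-0.09 ± 0.18) and its groups overlapped. Among the photosystem I antenna genes LHCA4 (-0.81 ± 0.17) and LHCA1 (-0.59 ± 0.18) fell, with edgeR adjusted p of 0.0029 and 0.021. These encode the partners of one antenna dimer. LHCA2 (-0.28 ± 0.17) and LHCA3 (-0.33 ± 0.18), the partners of the other dimer, did not pass, with edgeR adjusted p of 0.205 and 0.159. The difference between the 2 dimers was not tested.

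Every photosystem I gene rose in msh1 TRAP, 11 of 11, with log2 values from 0.56 to 1.45, where 20.8% of all tested genes rose. With a length trend removed, only PSAH1, PSAH2, PSAD1, PSAK and PSAO of them passed. PSAH2 stood at 1008 and 1541 CPM in msh1 TRAP, against 404 and 527 CPM in WT TRAP (1.45 ± 0.22, edgeR adjusted p = 0.000293). Its paralog PSAH1 stood at 756 and 1189 CPM in msh1 TRAP, against 335 and 421 CPM in WT TRAP (1.36 ± 0.21, edgeR adjusted p = 0.000381). PSAK, a small membrane subunit next to the antenna, stood at 1365 and 2283 CPM in msh1 TRAP, against 641 and 811 CPM in WT TRAP (1.33 ± 0.23, edgeR adjusted p = 0.000785). In each of these genes both msh1 libraries were well above both WT libraries, and msh1 TRAP 2 was above msh1 TRAP 1.

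The stromal subunits that dock ferredoxin rose as well. PSAD1 stood at 1368 and 1808 CPM in msh1 TRAP, against 583 and 766 CPM in WT TRAP (1.23 ± 0.19, edgeR adjusted p = 0.000392). Its paralog PSAD2 stood at 431 and 792 CPM in msh1 TRAP, against 300 and 379 CPM in WT TRAP (0.85 ± 0.24, edgeR adjusted p = 0.0141). PSAE1 stood at 1528 and 2393 CPM in msh1 TRAP, against 847 and 1029 CPM in WT TRAP (1.06 ± 0.22, edgeR adjusted p = 0.00202). The groups did not overlap in any of these, and the PSAD2 call was lost without msh1 TRAP 2, without WT TRAP 1 and with a length trend removed (0.27, edgeR adjusted p = 0.349). PSAO, which lies on the side of photosystem I where the mobile antenna binds, stood at 2370 and 3911 CPM in msh1 TRAP, against 1201 and 1469 CPM in WT TRAP (1.23 ± 0.23, edgeR adjusted p = 0.00112). PSAN, on the lumen side where plastocyanin docks, stood at 1525 and 2029 CPM in msh1 TRAP, against 830 and 1047 CPM in WT TRAP (0.92 ± 0.19, edgeR adjusted p = 0.0023). PSAL, PSAF and PSAG had the lowest values of the complex, at 0.64, 0.56 and 0.56, and PSAF and PSAG were each lost under 8 of the 15 other settings.

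Of the 10 photosystem II genes 7 rose in msh1 TRAP, where 20.8% of all tested genes rose. With a length trend removed, only PSBQA and PSBW of them passed. PSBQA, a lumenal protein of the oxygen-evolving complex, stood at 922 and 1348 CPM in msh1 TRAP, against 457 and 515 CPM in WT TRAP (1.22 ± 0.19, edgeR adjusted p = 0.000416). Its paralog PSBQ2 stood at 2162 and 2849 CPM in msh1 TRAP, against 1530 and 1892 CPM in WT TRAP (0.55 ± 0.19, edgeR adjusted p = 0.0331). PSBW, a small membrane subunit of photosystem II complexes, stood at 2692 and 3662 CPM in msh1 TRAP, against 1308 and 1506 CPM in WT TRAP (1.18 ± 0.19, edgeR adjusted p = 0.000514). The msh1 libraries were higher without overlap in all of these, and PSBQ2 no longer passed under 8 of the 15 other settings. PSBO2 stood at 1235 and 1472 CPM in msh1 TRAP, against 673 and 934 CPM in WT TRAP (0.75 ± 0.19, edgeR adjusted p = 0.00652). PSBO1 stood at 3950 and 5429 CPM in msh1 TRAP and 3468 and 4283 CPM in WT TRAP, with overlapping groups (0.28 ± 0.20, edgeR adjusted p = 0.293). PSBP1, PSBR and PSBX rose by 0.70, 0.82 and 0.81. The genes that did not pass were PSBO1, PSBY (0.28 ± 0.21) and PSBS (-0.26 ± 0.17), the last of which encodes a sensor of photoprotection that belongs to the LHC superfamily by descent and was the only core gene with a negative value.

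**Figure D4:**
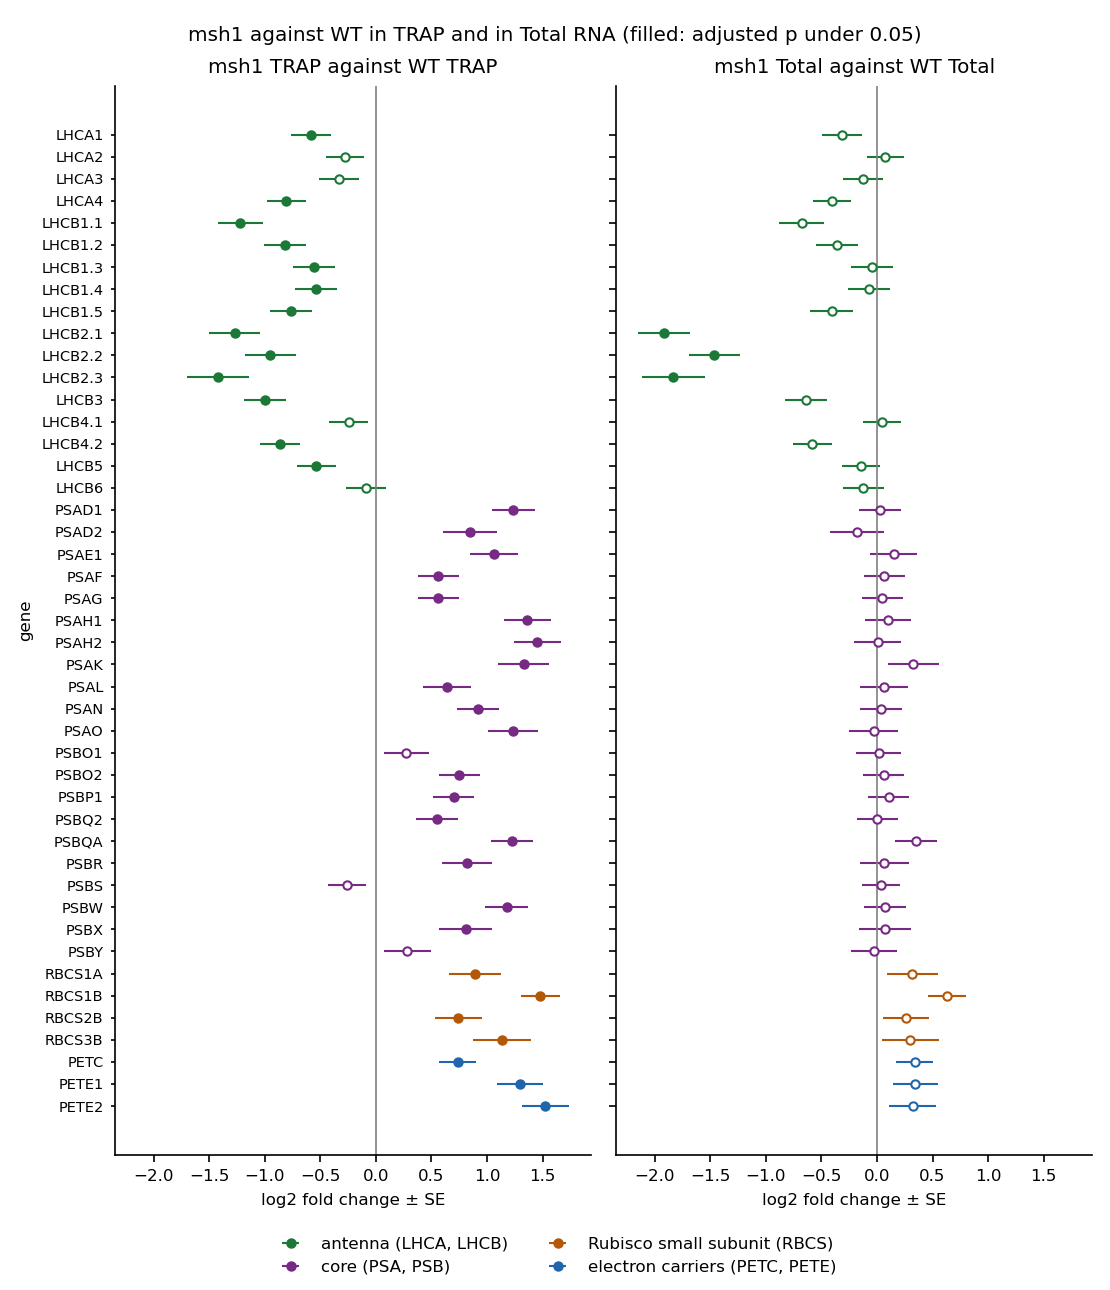
Log2 fold change of msh1 against WT with its SE for the 45 genes, in TRAP RNA (left) and Total RNA (right), filled where the edgeR adjusted p was under 0.05. On the left the 17 antenna genes lie below 0 and 20 of the 21 core genes above it, and on the right only LHCB2.1, LHCB2.2 and LHCB2.3 are filled.

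The RBCS and electron carrier genes went with the core genes in TRAP RNA. All 4 RBCS genes rose, where 20.8% of all tested genes rose. RBCS1B stood at 951 and 1221 CPM in msh1 TRAP, against 385 and 394 CPM in WT TRAP (1.48 ± 0.18, edgeR adjusted p = 7.78e-05). RBCS1A, the highest member of the family per kilobase, stood at 10110 and 16240 CPM in msh1 TRAP, against 6450 and 7768 CPM in WT TRAP (0.89 ± 0.23, edgeR adjusted p = 0.00874). RBCS3B stood at 3335 and 5849 CPM in msh1 TRAP, against 1700 and 2486 CPM in WT TRAP (1.13 ± 0.26, edgeR adjusted p = 0.00447). No group overlapped here, and the msh1 libraries were unequal. RBCS2B stood at 1023 and 1649 CPM in msh1 TRAP, against 752 and 846 CPM in WT TRAP (0.74 ± 0.21, edgeR adjusted p = 0.0131). With a length trend removed, the calls of RBCS1A and RBCS2B were lost. Without msh1 TRAP 2 neither RBCS1A nor RBCS2B passed.

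Plastocyanin, which carries electrons to photosystem I, is encoded by PETE1 and PETE2. PETE2 stood at 3900 and 5449 CPM in msh1 TRAP, against 1359 and 1890 CPM in WT TRAP, and its 2.88-fold difference was the largest of the 45 genes in this comparison (1.52 ± 0.21, edgeR adjusted p = 0.000213). PETE1 stood at 195 and 310 CPM in msh1 TRAP, against 92.2 and 113 CPM in WT TRAP (1.3 ± 0.21, edgeR adjusted p = 0.000467). PETC, the Rieske protein of the cytochrome b6f complex, rose by 0.73 ± 0.17 (edgeR adjusted p = 0.00385). With a length trend removed it did not pass (edgeR adjusted p = 0.187). All 3 electron carrier genes rose, against 20.8% of all tested genes. All 3 were higher in each msh1 library than in either WT library, as were 32.6% of all tested genes. PETE2 held 95.2 and 94.6% of the PETE counts in msh1 TRAP, against 93.6 and 94.3% in WT TRAP.

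The msh1 TRAP libraries differed from each other. All 21 core genes, all 4 RBCS genes and all 3 electron carrier genes stood higher in msh1 TRAP 2 than in msh1 TRAP 1, by a median of 0.55, 0.69 and 0.48 on the log2 scale, and 14 of 17 antenna genes did so by a median of 0.19. In WT TRAP all 45 genes stood higher in the second library, by a median of 0.32. RPL18, the gene of the tagged protein, stood at 849 and 1862 CPM in msh1 TRAP, against 278 and 269 CPM in WT TRAP, in the same order of the msh1 libraries. In Total RNA it stood at 344 and 328 CPM in msh1, against 293 and 273 CPM in WT. For RPL18, WT TRAP thus overlapped WT Total, while msh1 TRAP stood above msh1 Total. Its part in the result was not tested. Without msh1 TRAP 2 there were 29 calls in TRAP, and without msh1 TRAP 1 there were 37, against 38 as reported. Of the 38 calls, 18 were kept under all 15 other settings, among them 7 antenna genes (LHCA4, LHCB1.1, LHCB1.2, LHCB2.1, LHCB2.3, LHCB3 and LHCB4.2) and 7 core genes (PSAD1, PSAH1, PSAH2, PSAK, PSAO, PSBQA and PSBW).

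Other cell markers moved in TRAP as well, where 20.8% of all tested genes rose and 20.8% fell. In msh1 TRAP against WT TRAP 1 of 8 epidermis markers rose and 6 fell, 3 of 6 guard cell markers fell, and 4 of 6 xylem and fibre markers fell. The xylem and fibre markers summed to 486 to 528 CPM in msh1 TRAP, against 1248 to 1530 CPM in WT TRAP, the guard cell markers to 321 to 380 CPM in msh1 TRAP, against 601 to 803 CPM in WT TRAP, and the epidermis markers to 1335 to 1538 CPM in msh1 TRAP, against 1633 to 2214 CPM in WT TRAP. Of 4 phloem markers 1 rose and 2 fell, with sums of 235 to 243 CPM in msh1 TRAP, against 294 to 454 CPM in WT TRAP. Of 4 floral organ markers 3 fell, with sums of 60.6 to 64.3 CPM in msh1 TRAP, against 77.2 to 113 CPM in WT TRAP. None of these markers was at 0 in any library, and their part in the antenna and core differences was not tested.

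Transcript length moved with the fold change in TRAP RNA. Over all 21202 tested genes, the log2 fold change of msh1 TRAP against WT TRAP had a Pearson's r of -0.26 and a Spearman's rho of -0.43 with log2 exon length, against -0.02 and -0.11 in Total RNA, given as a description across genes of the same libraries. Core genes were shorter than antenna genes, with a median exon length of 1018 bases, against 1312 bases for antenna genes. Over the 21 core genes the r was -0.62, or -0.48 without PSBS, the longest of them, and over the 17 antenna genes 0.05. Among genes within the length range of the antenna genes, 1045 to 1625 bases, 7 of 9 core genes rose in msh1 TRAP with a median of 0.64, while 13 of 17 antenna genes fell with a median of -0.76. In that length range 31.8% of all tested genes rose and 8.77% fell, with a median of 0.31. The core genes below that range all rose, 11 of 11, with a median of 1.06. The share of all tested genes below that range that rose is not given here, so this count has no baseline.

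Removing a smooth trend with length from each library changed the split of calls among the 45 genes to 11 higher and 16 lower, against 25 higher and 13 lower as reported. The core count became 7 of 21 with a median of 0.39, and the antenna count 16 of 17 with a median of -1.13, where 3728 of the 21202 tested genes rose and 3029 fell. The gap between the antenna and core medians was -1.52 with the trend removed and -1.58 as reported. Both medians were lower than those reported without this step, -0.76 for the antenna genes and 0.82 for the core genes. The part of length in the difference between the classes was not tested.

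**Figure D5:**
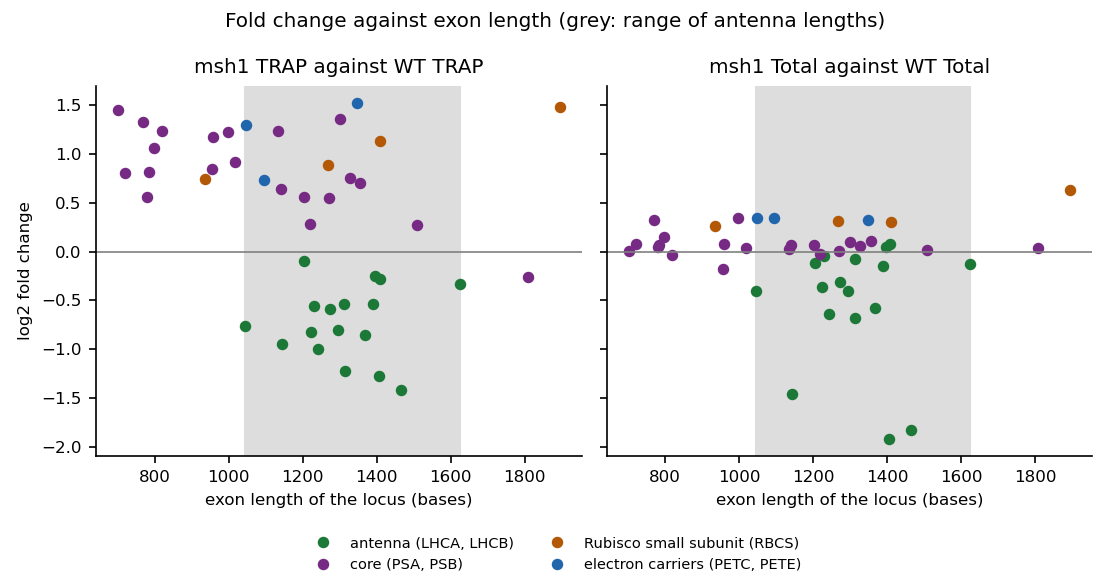
Log2 fold change of msh1 against WT in TRAP (left) and Total RNA (right) against the exon length of the locus in bases, with the range of antenna lengths (1045 to 1625) in grey. Inside the grey band on the left the antenna genes lie below 0 and the core genes above it, and the core genes left of the band all lie above 0.

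Comparing fractions within WT, no gene of the 45 passed in edgeR, where 5.07% of all tested genes did and 3.41% rose. At an unadjusted p under 0.05 there were 7, all antenna genes and all higher in TRAP. Of all 21202 tested genes 4303 had such a p in either direction, a share no smaller than that of the 45. DESeq2 called 5 higher, which were LHCB1.1 to LHCB1.5 with log2 values from 0.46 to 0.60. It called 879 of its 17792 tested genes higher. The edgeR median was 0.28 over the antenna genes, -0.17 over the core genes and -0.06 over all tested genes. Both WT TRAP libraries lay above both WT Total libraries for 11 antenna genes and for no core gene, against 23.6% of all tested genes, and below them for 8 core genes, against 32.0%. LHCB1.1 stood at 3478 and 4665 CPM in WT TRAP, against 3023 and 2460 CPM in WT Total, and PSAH2 at 404 and 527 CPM in WT TRAP and 559 and 478 CPM in WT Total. The LHCB2 genes did not follow LHCB1 there: LHCB2.1 stood at 976 and 1572 CPM in WT TRAP and 1837 and 1451 CPM in WT Total, with overlapping groups (-0.37 ± 0.23).

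Within msh1 the fractions differed in the core genes. Of the 45 genes 16 rose and 1 fell in msh1 TRAP against msh1 Total, where 14.1% of all tested genes rose and 12.1% fell, 26.2% in all. The 16 comprised 13 core genes (8 of photosystem I and 5 of photosystem II), RBCS1B, PETE1 and PETE2. Over all tested genes the log2 fold change had a Spearman's rho of -0.31 with exon length. Among tested genes of 1045 to 1625 bases, the range of antenna lengths, 21.4% rose and 6.07% fell. With a length trend removed, 8 of the 17 calls were lost. PSAH2 stood at 1008 and 1541 CPM in msh1 TRAP, against 511 and 531 CPM in msh1 Total (1.29 ± 0.21, edgeR adjusted p = 0.00152). PSBW stood at 2692 and 3662 CPM in msh1 TRAP, against 1779 and 1680 CPM in msh1 Total (0.88 ± 0.19, edgeR adjusted p = 0.00599). PSBS was the gene that fell, at 590 and 685 CPM in msh1 TRAP, against 945 and 970 CPM in msh1 Total (-0.59 ± 0.17, edgeR adjusted p = 0.0252). None of these groups overlapped. None of the 17 antenna genes passed in edgeR, at an unadjusted p under 0.05 or in DESeq2, and their median was 0.03, against 0.63 for the core genes and -0.03 for all tested genes. This count rested on single libraries: leaving out msh1 Total 1 or 2 gave 5 or 3 calls, and leaving out msh1 TRAP 1 or 2 gave 26 or 8. PSAD1, PSAH1 and PSAH2 passed under all 15 other settings.

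The test of the difference itself, the msh1 effect in TRAP minus the msh1 effect in Total, was passed by 10 of the 45 genes, all positive, where 15.6% of all tested genes passed, 9.01% with a positive and 6.61% with a negative value. They were 5 photosystem I genes (PSAH2, PSAO, PSAH1, PSAD1 and PSAN), 2 photosystem II genes (PSBW and PSBQA), RBCS1B, PETE2 and PETE1, and the values lay between 0.85 and 1.45. Over all tested genes the value had a Spearman's rho of -0.43 with exon length. Among tested genes of 1045 to 1625 bases, the range of antenna lengths, 14.2% passed with a positive and 1.31% with a negative value. With a length trend removed, 7 of the 10 calls were lost. PSAH2 had the largest (1.45 ± 0.30, edgeR adjusted p = 0.00919) and was the only one kept under all 14 other settings. PSAO (1.27 ± 0.32, edgeR adjusted p = 0.0204), at 2370 and 3911 CPM in msh1 TRAP against 1201 and 1469 CPM in WT TRAP, stood at 1606 and 1550 CPM in the msh1 libraries of Total RNA and 1709 and 1516 CPM in those of WT. It was thus high in msh1 TRAP alone among the 4 groups. The paralogs PSAD2 (1.03 ± 0.34) and PSBQ2 (0.55 ± 0.27) did not pass beside PSAD1 (1.21 ± 0.27) and PSBQA (0.88 ± 0.27), and the difference between the paralogs was not tested. The count rested on single libraries: it was 1 when either msh1 Total library or WT Total 1 was left out, 2 when WT Total 2 was, 5 when WT TRAP 1 was, and 26 or 6 when msh1 TRAP 1 or 2 was.

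No antenna gene passed the test of the difference in edgeR, at an unadjusted p under 0.05 or in DESeq2. The antenna fall in TRAP was thus not shown to differ from that in Total, for LHCB2 (0.65 ± 0.32 for LHCB2.1) or for LHCB1 (-0.54 ± 0.28 for LHCB1.1). The signs of the estimates differed between families: all 3 LHCB2 genes had positive values, 0.41 to 0.65, and all 5 LHCB1 genes negative ones, -0.54 to -0.35. The median was -0.35 over the antenna genes, 0.75 over the core genes and -0.01 over all tested genes.

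Of 7 listed regulators 3 fell and none rose in msh1 Total, where 3.07% of all tested genes fell. These were the clock genes CCA1 (-2.99 ± 0.30) and LHY (-2.27 ± 0.36) and the antenna activator GLK2 (-1.3 ± 0.17), with edgeR adjusted p of 0.000226, 0.00318 and 0.000814. CCA1, LHY and GLK2 also fell in msh1 TRAP, with log2 fold changes of -3.01, -1.24 and -0.48. Antenna and RBCS genes follow the time of day in leaves, and the part of these regulators and of the hour of harvest in the differences was not tested. The antenna genes whose promoters hold the GLK motif CCAATC had a median of -0.78 in msh1 TRAP against WT TRAP, with 8 of 10 fallen, and those without it -0.54, with 5 of 7 fallen. The 3 other genes with the motif, PSBQ2, PETC and PETE2, all rose in that comparison. Of all tested genes 20.8% rose and 20.8% fell there, and the part of the motif was not tested. STN7, the kinase that phosphorylates LHCB2, fell in both fractions, by 0.57 ± 0.14 in Total (edgeR adjusted p = 0.049) and 1.19 ± 0.15 in TRAP (edgeR adjusted p = 0.000114).

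Other genes of the pathway went both ways in TRAP RNA, where 20.8% of all tested genes rose and 20.8% fell, so that counts near those shares, as for the Calvin cycle, say nothing of a list. Of 9 minor photosystem and antenna genes 4 rose and none fell in msh1 TRAP, among them the assembly factors PSB28 (1.41 ± 0.19) and PSB27 (1.18 ± 0.19), while none passed in Total. Of 7 ATP synthase and ferredoxin genes 3 rose, the ferredoxins FD2 (1.67 ± 0.21) and FD1 (1.25 ± 0.20) and the ATP synthase subunit ATPD (1.19 ± 0.19). Of 15 Calvin cycle genes 2 rose and 4 fell, the regulator CP12-2 rising (1.60 ± 0.21) and the transketolase TKL1 (-1.26 ± 0.22), the aldolase FBA1 (-0.82 ± 0.18) and the Rubisco activase RCA (-0.67 ± 0.18) falling. Of 5 genes for the route that inserts antenna proteins into thylakoids 3 fell, CPFTSY (-1.02 ± 0.22), FFC (-0.81 ± 0.19) and ALB3 (-0.69 ± 0.14), and LTD rose (0.68 ± 0.17). Of 4 relatives of the antenna proteins the small OHP1 and OHP2, which help assemble photosystems, rose by 1.16 and 1.28, and ELIP1, a stress-induced member, fell by 1.05. In msh1 Total ELIP1 and ELIP2 fell, by 1.61 and 1.70. No Calvin cycle, ferredoxin, ATP synthase or insertion gene passed in Total in edgeR. There 3 Calvin cycle, 2 minor photosystem and antenna and 1 insertion gene had an unadjusted p under 0.05, and DESeq2 called none of the genes of these lists. Of all 21202 tested genes 3530 had such a p there.

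Copies within families were close enough to limit some values. Coding sequences of LHCB1.1 and LHCB1.3 were 96.1% identical, those of LHCB2.1 and LHCB2.2 92.9%, and those of RBCS1B and RBCS2B 97.3%. Even so, 87.6% of 100-base windows of LHCB2.2, the lowest value of the 45 genes, and 90.8% of those of LHCB2.1 had no second exact copy in the genome, so reads could mostly be assigned. The overlap with genes on the other strand weighed more, since the library preparation does not mark strand. The lncRNA locus AT2G08665 covers LHCB1.5 entirely and held 92.9 to 95.2% as many counts, and AT1G55673 held 86.9 to 93.1% as many as PSAG. For PSAE1, PSAH1 and LHCB6 the partner held 57.0 to 62.8%, 37.7 to 44.5% and 36.8 to 41.6%, with little change between groups. For LHCB2.3 the partner AT3G27700 held 28.6 to 84.6%, a ratio that also moves with LHCB2.3 itself, and it overlaps 40.6% of that gene.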

How the data were processed

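RNA of floral stem was sequenced from 8 libraries in 4 groups of 2, and groups were taken from the sample titles. Per the labels' protocols, a NucleoSpin RNA Plant kit gave the RNA, libraries followed the TruSeq RNA v2 guide, which does not mark strand, and reads were paired-end. The authors deposited raw counts per locus for each library, and the submitters' processing notes name the TAIR10 build and DESeq2. Which aligner and which counter they used is not given in the sources used here. Reads in no gene made up 38.5 to 41.7% of the listed counts and reads without a unique alignment 12.4 to 18.9%. These and the other lines that name no gene stayed out of library sizes and tests.

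The counts were fitted in edgeR 4.0.16 under R 4.3.3 (filterByExpr, TMM scaling, glmQLFit and glmQLFTest) in 1 fit of the 4 groups, which left 21202 genes and 4 residual degrees of freedom, with Benjamini-Hochberg adjustment over those genes. The script was tested on simulated data. Each gene's fold change and call come from this fit, levels are TMM-scaled CPM, and the SE follows from the F statistic. DESeq2 1.42.0, other scaling factors, no filter, a fit of the compared groups only, a replicate block, removal of a length trend (lowess, span 0.3) and leaving out each library were the 15 alternatives, 14 for the interaction. The labels do not say whether equal replicate numbers mark shared plants. Deviations of same-numbered libraries correlated between -0.24 and 0.08, which cannot settle the question. Annotation, coordinates and sequences are from RefSeq TAIR10.1, whose build name differs from the TAIR10 of the notes, and loci were matched by identifier. The 45 genes and all gene lists were chosen with earlier results of these data known. Genes given in every library were those that passed in Total or in the interaction, up to 8 with the largest change in each other comparison, and paralogs whose calls differ. Counting error alone is covered by any floor from depth, which for 3 counts was 0.207 to 0.385 CPM.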

Additional observations from a re-analysis of the deposited data

Results flagged for a closer look

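For 10 genes the msh1 effect differed between TRAP and Total RNA by the edgeR test of the difference. The values of the 10 (log2, TRAP effect less Total effect) were 1.45 for PSAH2, 1.27 for PSAO, 1.26 for PSAH1, 1.21 for PSAD1, 1.21 for PETE2, 1.1 for PSBW, 0.95 for PETE1, 0.88 for PSBQA, 0.88 for PSAN and 0.85 for RBCS1B. In all 10 the estimate was higher in TRAP, and with the length trend removed 7 of the 10 no longer passed, the 3 that did being PSAH1, PSAH2 and RBCS1B.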

How the results depend on the processing

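The 15 settings other than the reported one (14 for the interaction) were compared. The counts below stand without the share of all tested genes called under each setting. The number of the 45 genes called in msh1 Total against WT Total was 3 as reported, 7 with no filter on low counts, 7 with DESeq2, 16 with the compared groups only, and 2 to 7 with a library left out (7 without msh1 TRAP 1 or msh1 TRAP 2). In msh1 TRAP against WT TRAP it was 38 as reported and 29 to 37 with a library left out. In WT TRAP against WT Total it was 0 as reported, 2 with no filter, 5 with DESeq2, 1 with the length trend removed, and 0 to 5 with a library left out (5 without msh1 TRAP 1, 4 without msh1 TRAP 2). In msh1 TRAP against msh1 Total it was 17 as reported, 9 with the length trend removed, and 3 to 26 with a library left out. In the interaction it was 10 as reported, 16 with no filter, 3 with the length trend removed, and 1 to 26 with a library left out. The antenna minus core median, -0.42 in Total as reported, was -0.47 to -0.35 with a library left out, that of WT TRAP against WT Total, 0.45, was 0.38 with the length trend removed and 0.41 to 0.50 with a library left out, that of msh1 TRAP against msh1 Total, -0.61, was -0.68 to -0.43, that of the interaction, -1.10, was -1.33 to -0.92, and that of msh1 TRAP against WT TRAP, -1.58, was -1.80 to -1.41. With a replicate block the counts were 3, 37, 0, 17 and 7, in the order in which the comparisons were named above. Whether equal numbers mark shared plants is not given, so the calls lost there cannot be read further. PSAG in msh1 TRAP against WT TRAP changed sign, to -0.0121, with the length trend removed, where longer genes had lower fold changes. The cause of the other changes was not tested. With 2 libraries per group, leaving out 1 leaves a lone library assumed to vary like the other groups. Reads shared between copies and strands limit the values of LHCB1.5, LHCB2.3, LHCB6, PSAG, PSAE1 and PSAH1.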
